A study of Mus musculus with 5 samples.

Results

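The amacrine fate transcription factors described here are 7 genes, Pax6, Tfap2a, Tfap2b, Tfap2c, Neurod2, Neurod6 and Meis2, taken by symbol from the 33636 rows of a gene count table of mouse retina. Each symbol had 1 row, so all 7 members were found. RNA was sequenced from whole retinas of wild-type male C57BL/6J mice, an inbred laboratory strain, at postnatal day (P) 42. A diffuser goggle, which blurs the retinal image and drives the growing eye towards myopia (form-deprivation myopia, FDM), covered the right eye for 2 weeks from P28, and the left eye of the same animal was left uncovered as the control. The files held 5 libraries, 2 from FDM eyes and 3 from control eyes, each from the retina of 1 eye. FDM 1 and Control 1, which share a number in the labels, were taken as the eyes of one mouse. The other FDM library carries the number 3 in the count table, where Control 3 shares it, but the number 2 in its sample label. It is called FDM 3 here, and taking FDM 3 and Control 3 as a pair rests on the count table's number alone, so that this pairing is uncertain.

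Amacrine cells are the inhibitory interneurons of the inner retina. They release mostly GABA or glycine, shape the signals passing from bipolar to ganglion cells, and include the dopaminergic cells that are widely studied in the control of eye growth. Their identity is set by transcription factors that act in steps, first in progenitors and later in single subtypes, and several of these remain on in the adult cell. Pax6, a paired-domain and homeodomain protein, acts in progenitors and stays on in amacrine, horizontal and ganglion cells. Tfap2a, Tfap2b and Tfap2c encode AP-2 proteins, of which the alpha and beta forms act in amacrine and horizontal cells and the gamma form is found in a subset of amacrine cells. Neurod2 and Neurod6 encode basic helix-loop-helix proteins of narrower amacrine subsets, and Meis2 encodes a homeodomain protein that binds DNA with partner proteins and is found mainly in GABAergic amacrine cells. In whole retina, fewer cells of a type and less RNA per cell cannot be told apart.

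The members lie on 5 chromosomes of GRCm38 and are all protein-coding. In the GENCODE M21 annotation, Pax6 is at chr2:105668900-105697364 on the plus strand with 26 transcripts, and Meis2 at chr2:115863064-116065839 on the minus strand with 19. Tfap2a is at chr13:40715302-40738376 on the minus strand, Tfap2b at chr1:19208914-19238576 on the plus strand and Tfap2c at chr2:172549593-172558622 on the plus strand. Neurod2 is at chr11:98325415-98329648 and Neurod6 at chr6:55677822-55681263, both on the minus strand, with 1 transcript and 2 exons each.

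Because reads of related genes can be split between them, the annotated transcripts of the members were compared in words of 50 bases, the length of the reads. No word was shared between any of the members. The longest exact match between the coding sequences of Tfap2a and Tfap2b was 29 bases, and it lay in the last coding exon of each, at chr13:40717215-40717243 and chr1:19234210-19234238. It is shown here with 11 coding bases on each side, 5′ to 3′ on the coding strand, with the matching bases in capitals:
Tfap2a: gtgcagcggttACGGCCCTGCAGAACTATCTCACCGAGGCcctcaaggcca
Tfap2b: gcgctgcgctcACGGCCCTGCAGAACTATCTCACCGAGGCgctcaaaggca
Between Tfap2a and Tfap2c the longest match was 17 bases, in exon 5 of Tfap2a (chr13:40719315-40719331) and exon 6 of Tfap2c (chr2:172556067-172556083). The first bases of these lines lie in the exon before:
Tfap2a: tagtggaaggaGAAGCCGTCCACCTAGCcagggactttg
Tfap2c: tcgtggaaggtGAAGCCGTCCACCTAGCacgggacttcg
Both windows come from the part of the genes towards the carboxyl end of the proteins, where AP-2 proteins bind DNA and pair with each other. The longest coding match of Tfap2b with Tfap2c, and of Neurod2 with Neurod6, was 11 bases. An exact read of 50 bases thus had no match in more than 1 member.

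Transcripts outside the members shared more with one of them. Of the 4838 different 50-base words of Tfap2a, 493 (10.2%) also occurred in transcripts of other genes, 11 of them on the same strand. The annotated antisense genes Gm47061, Gm26688 and Gm47067 overlap exons of Tfap2a by 265, 380 and 73 bases. None of these antisense genes has a row in the count table, so their own levels are not known. The labels name a library kit that keeps no strand, so reads of Tfap2a and of these genes cannot be told apart where they overlap. For Pax6 the share was 0.443%, for Meis2 0.190% and for Tfap2b 0.0316%, and Tfap2c, Neurod2 and Neurod6 shared no word (0) with another gene.

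The libraries held 40599047 to 56534931 estimated counts. Rod genes were the largest marker group, at 51782 to 65154 CPM summed over 7 genes, CPM being counts scaled to a library of 1000000, and the transporters and enzymes that mark amacrine cells were detected in every library (Slc6a9, a glycine transporter, at 192 to 223 CPM). Several libraries held more RNA of neighbouring tissues than others. The 13 lens markers found, led by Cryaa, summed to 2192 CPM in FDM 3 and to between 3.36 and 21.8 in the other 4 libraries, and 11 of the 11 that could be tested were higher in FDM eyes at an unadjusted p under 0.05 in edgeR, although FDM 1 summed to only 3.46. The 10 markers of the retinal pigment epithelium (RPE) summed to 69.6 CPM in FDM 1, 61.3 in FDM 3 and 75.0 in Control 1, but to 264 in Control 2 and 244 in Control 3. The 6 skeletal muscle markers stood at 59.5 CPM in Control 3 and between 9.24 and 10.7 elsewhere. Markers of bipolar cells, Müller glia and rods had median log2 fold changes (FDM against control) of 0.037, -0.023 and -0.024, and 0 of them passed the threshold in edgeR without a block. With the mouse as a block, by the count table's numbers, 7.23% of all genes passed it. Among these markers Apoe, Gnat1 and Sag then passed as lower in FDM eyes and Aqp4 as higher (adjusted p at least 0.619 from edgeR). Where these values move with a member, they are given beside it.

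The levels of the members were ranked only per length, as CPM per kb of annotated exon. Marker sums and the other gene lists are in plain CPM. Pax6 had 31.8 ± 3.75 CPM per kb (SD, n = 5 libraries) and Tfap2b 31.6 ± 1.70, a pair that did not differ beyond the spread between libraries. Pax6 was above 92.2% of the genes tested and Tfap2b above 92.1%. Meis2 followed with 10.7 ± 0.454 CPM per kb, Tfap2a with 9.06 ± 0.401 and Neurod2 with 7.75 ± 0.370. Each of these 3 lay above the next in all 5 libraries, since the lowest library of Meis2 stood at 10.1 and the highest of Tfap2a at 9.69, and the lowest of Tfap2a at 8.69 and the highest of Neurod2 at 8.03. Tfap2c stood at 4.61 ± 0.170 and Neurod6 at 0.831 ± 0.0833 CPM per kb, which is above 24.0% of the genes tested. The level of Pax6 depended on the length used: per kb of its longest transcript it was 84.0 and that of Tfap2b 34.2, because the exons of the many Pax6 transcripts add up to 11694 bases while the longest transcript has 4427. For Meis2 the corresponding value was 23.5, and the order of the 7 genes was the same with both lengths.

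**Figure D1:**
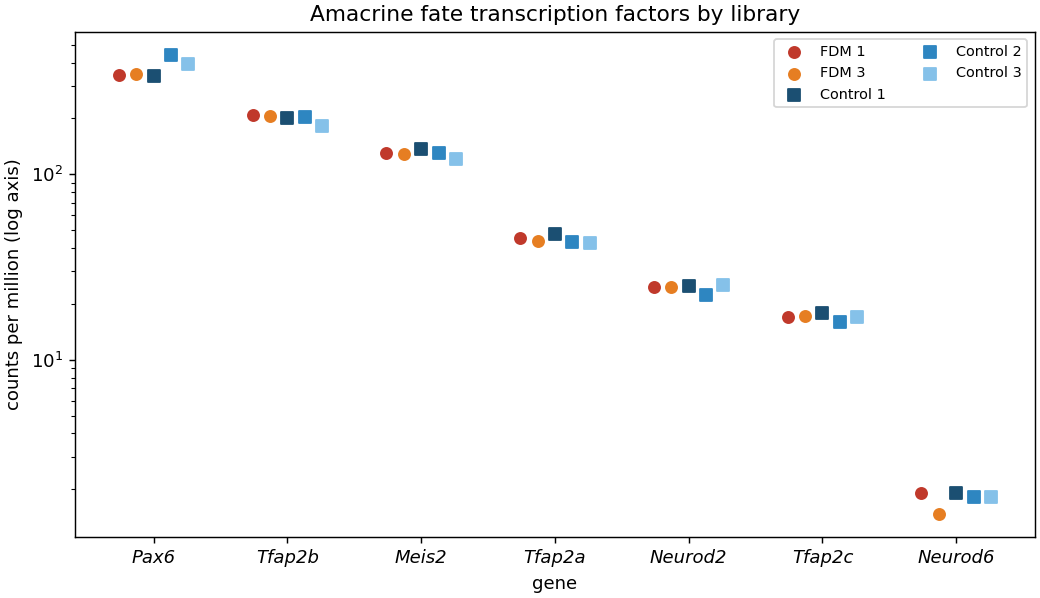
Level of each of the 7 transcription factors (x axis) in CPM on a log axis, with 1 point for each of the 2 FDM libraries (circles) and 3 control libraries (squares). The points of a gene lie close together, from 338.5 to 438 for Pax6 down to 1.48 to 1.91 for Neurod6, and Control 2 and Control 3 are set apart upwards for Pax6.

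The question of the design is whether 2 weeks of form deprivation changed these transcripts in the retina. None of the 7 members (0) had an unadjusted p under 0.05, the study's threshold, in edgeR's quasi-likelihood test of FDM against control eyes, and 0 did in DESeq2 or in limma on the normalized counts. The background is low as well: 281 of the 17432 genes tested, or 1.61%, passed this threshold in edgeR, 0.453% in the direction of higher and 1.16% of lower levels in FDM eyes. DESeq2 gave 0.987%, and after Benjamini-Hochberg adjustment 0 genes passed in edgeR and 3 (0.0172%) in DESeq2. With the mouse as a block, 7.23% of genes passed unadjusted and 0.31% adjusted, or 2.52% and 0.734% when the pairs were set by the label numbers, and 0 members passed in any of these. So few genes were called in all that a count of 0 among 7 lies near the background and is not a result about the members. All 7 members passed the filter on low counts, and their adjusted p from edgeR was 1.0 in each case. The median log2 fold change of the members was 0.0047, against -0.013 over all genes tested. The intervals show what was measured: for 5 of the 7 genes, those other than Pax6 and Neurod6, the 95% interval lay within -13.2% and 22.4% of the control level.

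Pax6 is the member with the largest difference. Its estimated counts were 14796 and 16623 in FDM 1 and 3, against 13516, 24984 and 18759 in Controls 1, 2 and 3. In the same order, which all series of 5 values below follow, these are 341, 346, 338.5, 438 and 395 CPM. Both FDM libraries lay just above Control 1 and below Control 2 and Control 3, so the groups overlapped. FDM eyes averaged 343 ± 3.05 CPM (SD, n = 2), while the mean of the controls was 391 ± 50.01 (SD, n = 3), and their spread exceeded the difference of the means. The log2 fold change was -0.19 (standard error 0.12, 95% interval -0.46 to 0.090, unadjusted p = 0.157, adjusted p = 1.0 from edgeR). Single controls decide this value. Without Control 1 the log2 fold change was -0.28 and the unadjusted p = 0.0200 (adjusted p = 0.816 from edgeR), and without Control 2 the log2 fold change was -0.085. Adding a block for the mouse gave -0.091 by the count table's numbers (unadjusted p = 0.163, edgeR adjusted p = 0.749) and -0.17 by the label numbers (unadjusted p = 0.184, edgeR adjusted p = 1.0). By the count table's numbers Control 2 has no partner eye, and by the label numbers Control 3 has none. In a block fit such a library does not add to the fold change. The value of -0.091 is therefore not independent of that without Control 2.

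The libraries highest in Pax6, Control 2 and Control 3, were also the highest in RPE marker RNA. Pax6 is made in tissues next to the retina as well, among them the ciliary body, the iris and the lens epithelium. All 10 RPE markers were detected, 6 of them had an unadjusted p under 0.05 in the direction of lower levels in FDM eyes, and none was at 0. Rpe65, the isomerase of the visual cycle, stood at 5.49, 4.51 and 5.36 CPM in FDM 1, FDM 3 and Control 1, and at 27.9 and 23.6 in Control 2 and Control 3. Within the controls, Pax6 was lowest where the RPE markers summed to 75.0 CPM and higher where they summed to 264 and 244. In FDM 3, with the highest lens marker sum, Pax6 did not stand apart from FDM 1. The part of RPE or neighbouring tissue in the Pax6 difference was not tested. Set against the summed CPM of the other 6 members, without regard to length, Pax6 was 0.797 in FDM 1, 0.818 in FDM 3 and 0.786 in Control 1, and 1.05 and 1.01 in Control 2 and Control 3, so that it moved apart from the sum of these 6.

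**Figure D2:**
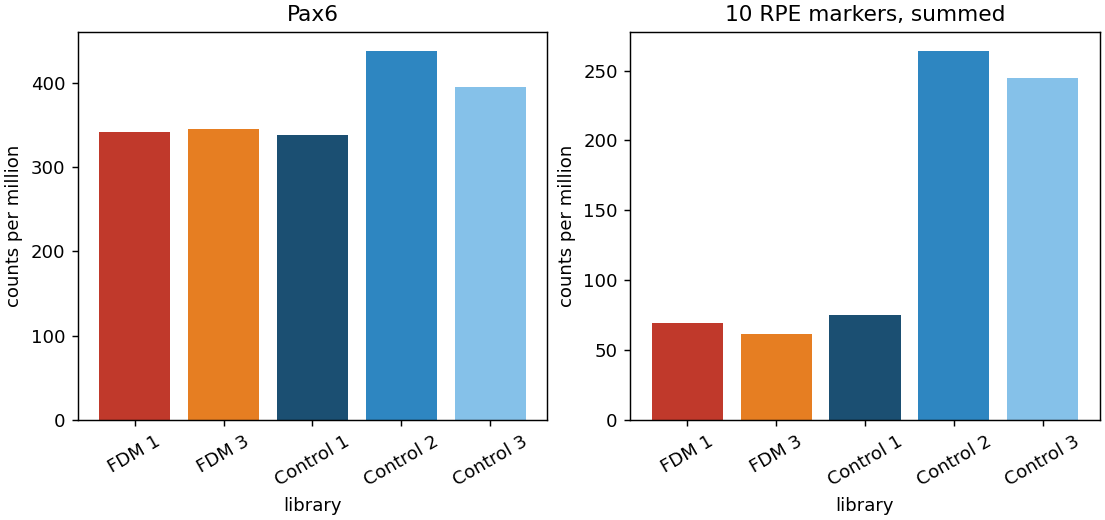
Pax6 (left) and the sum of 10 RPE marker genes (right) in CPM, 1 bar per library, with axes starting at 0. Control 2 and Control 3 are highest in both panels, at 438 and 395 for Pax6 and 264 and 244 for the RPE markers, while Control 1 is near the FDM libraries.

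Tfap2b encodes AP-2 beta, which is shared by amacrine and horizontal cells. Counts of 9053, 9960, 8063, 11551 and 8636 correspond to 209, 207, 202, 203 and 182 CPM. It was the only member whose groups did not overlap: both FDM libraries lay above every control, as was the case for 3.97% of all genes tested, while 6.67% had both below and 10.6% did not overlap in one direction or the other. The gap between FDM 3 and Control 2 was small, and Control 3 was lower than the rest. FDM eyes averaged 208 ± 1.23 CPM (SD, n = 2) against 195 ± 11.8 for the controls (SD, n = 3), a log2 fold change of 0.089 (95% interval -0.11 to 0.29, unadjusted p = 0.332, adjusted p = 1.0 from edgeR). In linear terms this is 6.39% more, with an interval from -7.51% to 22.4%. The authors' normalized counts were 10332, 9614, 9607, 9410 and 8077, with FDM 3 nearly level with Control 1. On these, limma with a pseudocount of 1 gave a log2 fold change of 0.15 (unadjusted p = 0.185). Without Control 3 the log2 fold change was 0.046, and a block for the mouse gave 0.12 by the count table's numbers (unadjusted p = 0.0641, edgeR adjusted p = 0.695) but 0.040 by the label numbers (unadjusted p = 0.761, edgeR adjusted p = 1.0). In the block by the label numbers Control 3 has no partner eye and does not add to the fold change.

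Tfap2a and Tfap2c differed less. Tfap2a, which encodes AP-2 alpha, had 1955, 2111, 1896, 2452 and 2023 counts, or 45.1, 43.9, 47.5, 43.0 and 42.6 CPM. The FDM libraries lay inside the range of the controls, and the log2 fold change was 0.0045 (95% interval -0.20 to 0.21, unadjusted p = 0.960, edgeR adjusted p = 1.0). Tfap2c, which encodes AP-2 gamma, had 736, 823, 710, 914 and 804 counts, or 17.0, 17.1, 17.8, 16.03 and 16.9 CPM. Its FDM libraries also lay inside the control range, with a log2 fold change of 0.012 (95% interval -0.20 to 0.23, unadjusted p = 0.902, edgeR adjusted p = 1.0). The direction of both values turned when single settings were changed, and neither gene can be given one.

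The 3 AP-2 genes kept their proportions from library to library. Of their summed level per kb of exon, Tfap2b made up 70.5%, 70.6%, 68.7%, 70.9% and 68.3%. Tfap2a made up between 19.3% and 20.9% and Tfap2c between 9.66% and 10.96%. The size of these shares depends on the length used. Tfap2b, Tfap2a and Tfap2c averaged 31.6, 9.06 and 4.61 CPM per kb of exon. Per kb of the longest transcript they averaged 34.2, 12.7 and 5.68. For each of the 3 genes the shares of the FDM libraries overlapped with those of the controls. Tfap2d and Tfap2e, AP-2 genes outside the members, averaged 2.06 and 2.32 CPM and are not in this sum. AP-2 proteins bind DNA as dimers of the same or different members, so the shares describe transcripts of these 3 genes and not the dimers themselves.

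**Figure D3:**
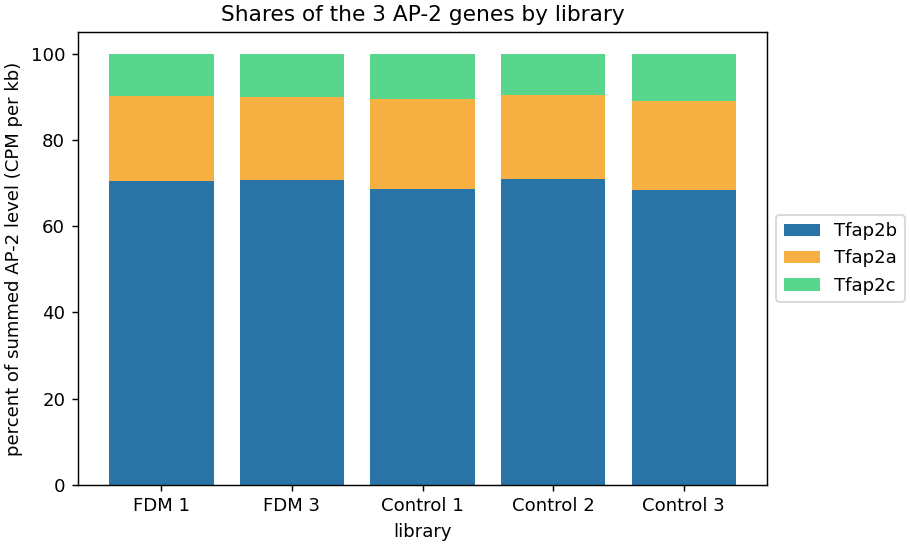
Shares of Tfap2b, Tfap2a and Tfap2c in their summed level (CPM per kb of exon), in percent, as 1 stacked bar for each of the 5 libraries. Tfap2b takes between 68.3% and 70.9% in every library, with no separation between FDM and control.

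Neurod2 is found in AII and other amacrine cells. Its counts were 1067, 1181, 999, 1273 and 1198, or 24.6, 24.6, 25.02, 22.3 and 25.2 CPM. The other libraries were nearly equal, and Control 2 was lowest. The log2 fold change was 0.024 (standard error 0.088, 95% interval -0.18 to 0.23, unadjusted p = 0.794, adjusted p = 1.0 from edgeR).

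Neurod6 marks a rare set of amacrine cells that use neither GABA nor glycine as far as their markers show. It was the scarcest member, with 83, 71, 76, 104 and 86 counts. In CPM these are 1.91, 1.48, 1.90, 1.82 and 1.81, so FDM 3 was below the other 4 libraries and FDM 1 at their upper end. At this depth the counting error alone is 9.81% to 11.9% of a value. The exact 95% Poisson interval of FDM 3, 1.15 to 1.86 CPM, overlapped that of every other library, such intervals covering counting error only. The log2 fold change was -0.12 (standard error 0.19, 95% interval -0.56 to 0.32, unadjusted p = 0.528, edgeR adjusted p = 1.0). Without FDM 3 it turned to 0.053. The ratio of Neurod2 to Neurod6 per kb was 11.4 in FDM 3 and between 8.38 and 9.53 in the other libraries. Ppp1r17, a gene of the same amacrine set, had a log2 fold change of -0.013 and stood at 19.5 CPM in FDM 3, inside the range of 18.0 to 20.2 of the other 4 libraries.

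Meis2 encodes the homeodomain protein of GABAergic amacrine cells introduced above. It had 5668, 6173, 5446, 7400 and 5755 counts, or 131, 128, 136, 130 and 121 CPM. The highest and the lowest library were both controls, and the FDM libraries lay between them. The log2 fold change was 0.0047 (standard error 0.086, 95% interval -0.20 to 0.21, unadjusted p = 0.958, adjusted p = 1.0 from edgeR).

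**Figure D4:**
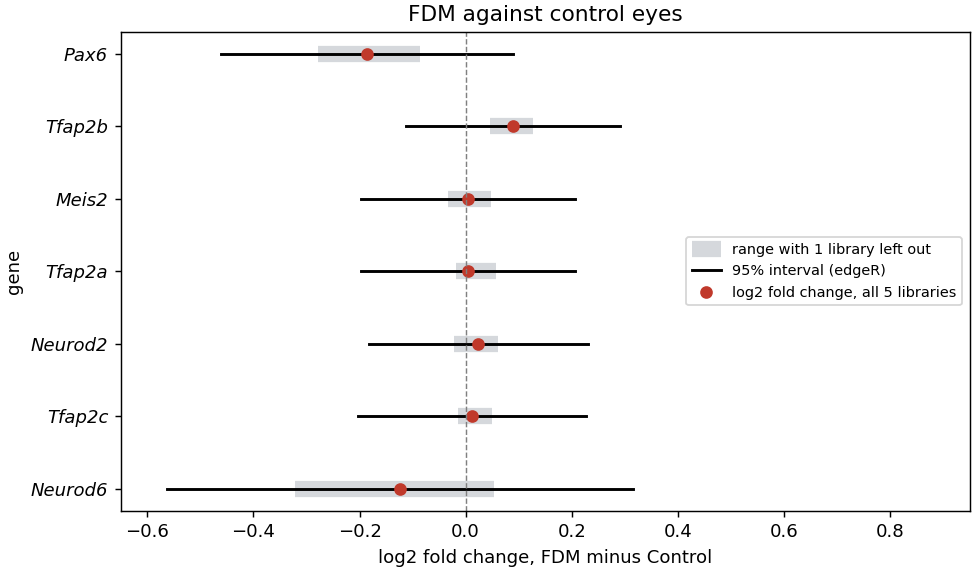
Log2 fold change of FDM against control eyes (x axis) for the 7 genes, with the 95% interval from edgeR as a line and, as a grey bar, the range over fits that each lack 1 library. Every interval includes 0, the widest being that of Neurod6 from -0.56 to 0.32, and the grey bars of Pax6 and Tfap2b stay on one side of 0.

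The eyes taken as pairs were also compared directly, as the log2 ratio of the FDM eye to the control eye of the pair, for which there is no test. Between FDM 1 and Control 1 the 7 ratios ran from -0.074 for Tfap2a to 0.048 for Tfap2b, all smaller in size than 0.10, the median absolute ratio over all genes tested in this pair. Between FDM 3 and Control 3 they ran from -0.29 for Neurod6 to 0.19 for Tfap2b, with Pax6 at -0.19, and here the median absolute ratio of all genes was 0.097. The ratios of Neurod6, Pax6 and Tfap2b in this pair were thus the largest in size. Tfap2b was higher in the FDM eye of both pairs, as were 24.7% of all genes, and Neurod2 was lower in both, at -0.024 and -0.039, as were 30.3%. The other 5 members went in opposite directions in the 2 pairs. Over all genes tested 55.0% went the same way in both and nearly all the rest in opposite directions. The count among 7 members is not read as a result about them. Paired by the numbers of the sample labels instead, FDM 3 against Control 2 gave -0.34 for Pax6, 0.032 for Tfap2b, 0.14 for Neurod2 and -0.016 for Meis2. The signs of Neurod2 and Meis2 thus depended on the pairing, and with the label numbers Meis2 was lower in the FDM eye of both pairs.

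**Figure D5:**
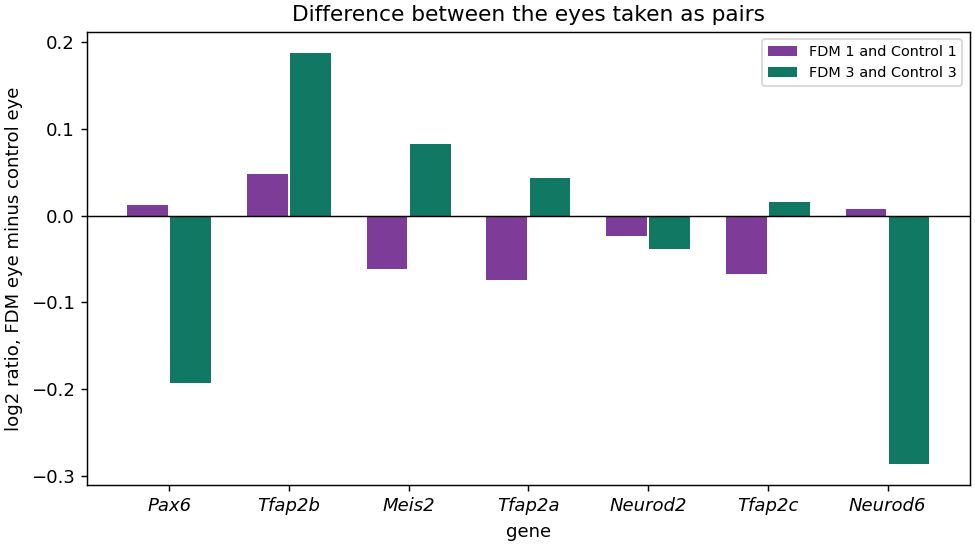
Log2 ratio of the FDM eye to the control eye of the pair for the 7 genes, 1 bar for the pair FDM 1 and Control 1 and 1 for the pair FDM 3 and Control 3. The first pair stays between -0.074 and 0.048, and the second reaches -0.29 for Neurod6, -0.19 for Pax6 and 0.19 for Tfap2b.

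Spread between libraries was low for most members. The highest library was 1.11 to 1.15 times the lowest for Tfap2a, Tfap2b, Tfap2c, Neurod2 and Meis2, 1.29 times for Pax6 and 1.30 times for Neurod6. The median over the 14815 tested genes with at least 1 CPM on average was 1.22. The biological coefficient of variation that edgeR estimated was between 8.64% and 10.5% for 6 members and 15.8% for Neurod6, against a median of 11.8% over all genes tested.

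Relatives and partners of the members were read as lists. Of the 9 family paralogs and the 11 dimer partners and cofactors, all were tested and 0 passed the unadjusted threshold in edgeR in either direction, or with the mouse as a block. Their median log2 fold changes were 0.0048 and 0.0063. Among the paralogs, Neurod1, which acts in photoreceptors as well as amacrine cells, had a log2 fold change of 0.054 at 462 CPM in FDM and 445 in control eyes. Meis1 had -0.084 and Neurod4 -0.15, the latter with Control 2 at 157 CPM and the other libraries between 91.6 and 110. Among the partners, Cited2, a coactivator of AP-2 proteins, had 0.0063, and Kctd15, an inhibitor of AP-2, had 0.055.

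Other transcription factors of amacrine cells gave the same picture of small values. Of 22 listed, 20 passed the filter on low counts, and 0 of them passed the unadjusted threshold in edgeR. Their log2 fold changes ran from -0.26 for Nr4a2, which is found in dopaminergic amacrine cells, to 0.16 for Lhx9. The most abundant were Prox1 (-0.065), Six3 (-0.013) and Isl1 (0.067). With the mouse as a block, in which 7.23% of all genes passed the unadjusted threshold, Lhx9 was higher at 0.24 (adjusted p = 0.646 from edgeR) and Sox2 lower at -0.20 (adjusted p = 0.561). The 15 transmitter and identity genes of amacrine cells had a median log2 fold change of -0.020, and 0 passed in edgeR without the block. Among the most abundant of them, Gad1, which makes GABA, had -0.024. Calb2, which encodes the calcium-binding protein calretinin, stood at 285 CPM in FDM and 342 in control eyes. Its log2 fold change was -0.26 (unadjusted p = 0.103, edgeR adjusted p = 1.0). It was -0.27 when the mouse was a block (unadjusted p = 8.20e-04, adjusted p = 0.170). By library Calb2 stood at 259, 311, 297, 334 and 395 CPM, and Nr4a2 at 9.62, 9.48, 9.77, 12.2 and 12.3. Both were highest in Control 2 and Control 3, as was Pax6. Most genes of these lists, among them Prox1, Six3, Isl1 and Gad1, did not have both of these controls highest.

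Horizontal cells also use Pax6, Tfap2a and Tfap2b, so their markers were read beside them. The 7 markers summed to 320 and 343 CPM in the FDM libraries and to 337, 368 and 359 in the controls, with a median log2 fold change of -0.082, and 0 passed in edgeR without the block. With the mouse as a block Ndrg1 was lower at -0.12 and Onecut1 higher at 0.62 (edgeR adjusted p = 0.675 and 0.508). The 9 ganglion cell markers, another cell type with Pax6, summed to 1002 and 1131 CPM in FDM and to 979, 1120 and 1194 in control eyes, and 0 passed. Neither sum separated the groups. In the horizontal cell sum, as for Pax6, Control 1 lay with the FDM libraries and Control 2 and Control 3 were highest. Ndrg1, the most abundant horizontal cell marker, had this order, at 218, 236, 238, 260 and 256 CPM. The other horizontal cell markers did not, Onecut3 for example being highest in Control 1. The ganglion cell sum was highest in Control 3 and FDM 3. Control 2 and Control 3 were also highest in the Müller glia sum, at 4156, 4328, 4171, 4375 and 4574 CPM. Its most abundant marker, Glul, was however lowest in Control 2. The next most abundant, Dkk3 and Apoe, were highest in Control 2 and Control 3. Dkk3 stood at 666, 694, 682, 747 and 753 CPM, and Apoe at 421, 463, 432, 570 and 577. The remaining Müller glia markers did not have both of these controls highest. The part of any of these cell types in the Pax6 difference was not tested.

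For each member the genes with the most similar profile were sought among tested genes of at least 1 CPM on average. The measure was the root mean square difference of the mean-centred log2 levels over the 5 libraries, so a small value also arises between genes that hardly vary. For Pax6 the closest was Sgpp1, with 51.9, 53.1, 51.9, 66.3 and 60.0 CPM. Its difference from Pax6 was 0.0084, against a median of 0.176 over all these genes, and Acss3 followed at 0.016. The closest genes were Zscan22 and Numa1 for Tfap2a, Wdr5b and Traf5 for Tfap2b, Cry2 and Ap1m1 for Tfap2c, Dmac1 and Rpa1 for Neurod2, Hddc2 and Trim43b for Neurod6, and Rbm48 and Stat3 for Meis2. No other member was among the closest genes of any member.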

How the data were processed

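The authors trimmed the reads with Trimmomatic 0.39 and estimated reads per transcript with Salmon 1.10.1, and they deposited estimated counts per gene as whole numbers. They also deposited counts normalized in DESeq2, a signal that was used here for limma only. The submitters' processing notes name GRCm38. The authors removed 1 sample for its level of read duplication. Total counts of 40599047 to 56534931 per library set the precision, and 3 counts, taken as the floor, are at most 0.0739 CPM.

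Testing covered the 17432 of 33636 genes that exceeded 10 counts in 2 or more libraries, and was done in edgeR 4.0.16 (R 4.3.3), with TMM normalization, the quasi-likelihood test and no covariate. CPM are counts divided by the TMM-scaled total and multiplied by 1000000. The standard error of a log2 fold change was derived from its F statistic, as its size over the square root of F. Pair ratios used log2 of CPM plus 0.05. Alternatives used DESeq2 1.42.0, limma 3.58.1 with pseudocounts of 1 and 0.1, other scalings and filters, a term for the mouse, and fits without each library in turn. With the term for the mouse, a control without a partner eye does not add to the fold change. That equal numbers mark eyes of one mouse was assumed, and for FDM 3 the count table and the label give different numbers. The deviations of FDM 1 and Control 1 from their group means correlated at 0.248. With 2 FDM libraries the deviations of FDM 3 mirror those of FDM 1, so its values, 0.101 with Control 3 and 0.164 with Control 2, settle no pairing. The p-values measure the spread between these eyes, and an FDM eye may share its mouse with a control eye. No pair of libraries was alike within sampling noise, with a chi-square per degree of freedom of at least 9.46. The 6 rows without a gene name held 0.000184% of counts. Transcripts and coordinates are from GENCODE M21, and all 7 identifiers matched. The fit was tested on simulated counts.

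The members and gene lists were chosen with earlier results of these data known. Besides the members, the text names the genes of each list with an unadjusted p under 0.05 or the 3 with the highest level, and the 2 closest profiles of each member. Some genes that this rule names are not reported here. Of the lens and RPE lists, sums and counts are given with an example. Ppp1r17, Nr4a2, Lhx9, Sox2, Slc6a9, Aqp4, Onecut1, Onecut3, Tfap2d and Tfap2e were named after their values were seen.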

Additional observations from a re-analysis of the deposited data

How the results depend on the processing

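The number of members with an unadjusted p under 0.05 was 0 in all alternatives but one, and leaving out each library gave 0 to 1 (Pax6 without Control 1). For all genes it was 281, against 172 in DESeq2, 498 without a count filter, 1261 with the mouse as a replicate block by the count table's numbers and 439 by those of the labels, and 146 to 944 with 1 library left out, the highest without Control 1. After adjustment it was 0 in edgeR, 3 in DESeq2, 54 and 128 with these blocks, and 0 to 16 with 1 library left out, where a lone FDM library was assumed to vary like the rest. The block changed the call of no member, but it turned Tfap2a to -0.015 (-0.022 by the label numbers), Tfap2c to -0.025, Neurod2 to -0.031 and, by the label numbers, Meis2 to -0.039. A block leaves the control without a partner eye out of the fold change. This was Control 2 by the count table's numbers and Control 3 by the label numbers. Its reversals are therefore not independent of those without Control 2 or Control 3 given below. Tfap2c was -0.011 in limma with either pseudocount. Pax6 stayed below 0 and Tfap2b above 0 in all 14 alternatives. With 1 library left out the log2 fold changes ran from -0.017 to 0.057 for Tfap2a, from -0.015 to 0.050 for Tfap2c, from -0.021 to 0.062 for Neurod2, from -0.033 to 0.047 for Meis2 and from -0.32 to 0.053 for Neurod6. Single reversed values were -0.015 and -0.0087 for Tfap2a and Meis2 without FDM 1, -0.0063, -0.015 and -0.021 for Tfap2a, Tfap2c and Neurod2 without Control 2, and -0.017 and -0.033 for Tfap2a and Meis2 without Control 3. The cause was not tested. With 2 FDM libraries, and at most 104 counts for Neurod6, small differences were not detectable.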
